A study of Mus musculus with 29 samples.

Results

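The genes described here encode the proteins of the mitochondrial ribosome. They were chosen by name, as every protein-coding gene whose symbol begins with Mrpl or Mrps followed by a digit, and were joined by gene identifier across 4 deposited gene tables. The rule uses no measured value. It found 75 of the 15672 genes listed in any table, and all 75 were listed in each of the 4 tables, none of which lists a gene with a base mean under 10. A base mean is the authors' normalised read count averaged over the libraries of a contrast. Of the 75 genes, 48 encode proteins of the large subunit and 26 encode proteins of the small subunit. The remaining gene, Mrps36, carries the family name, but its product is known as a component of the 2-oxoglutarate dehydrogenase complex. Mrpl57 and Mrpl58 stand in the tables under the older symbols Mrp63 and Ict1, outside the name rule, and Mrpl53 was not analysed here.

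The samples were 29 libraries of polyadenylated RNA in 6 groups, from male mice of the strain that the labels spell C56BL/6, aged 3 months and housed singly. One set came from CA1, a field of the hippocampus, with 5 libraries of naive mice, 5 of mice killed 1 h after exposure to a new context, and 4 of mice killed 1 h after the context with a footshock of 0.7 mA. The other came from the anterior cingulate cortex (ACC), with 5 libraries each of naive mice, of mice killed 4 weeks after the context, and of mice killed 4 weeks after context plus shock. The labels give the same age for all groups and no separate age at death for the ACC mice, so training and the passing of 4 weeks cannot be told apart in ACC. Region and time after training also differ together between the 2 sets, and age at death may differ with them. The design asks how learning of a context changes each region against naive mice. The files hold 1 fold change and 1 p per gene and contrast and no value per library, so every value below belongs to a contrast, the spread between single mice cannot be shown, and sequencing depth is unknown. Whether a library is 1 mouse is not stated, so the p-values measure the spread between these libraries.

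The region labels were checked against marker genes in the authors' deposited tables of the context contrasts. Fibcd1, a marker of CA1 pyramidal cells, had a base mean of 4061 in CA1 and 128 in ACC. Lamp5, a cortical marker, had a base mean of 921 in CA1 and 4422 in ACC, and Foxp2, a marker of deep cortical layers, had 60.9 and 463. Fezf2, another marker of deep layers, went the other way, with 1434 in CA1 and 1049 in ACC. Of the markers listed in both tables, 4 of 4 for CA1 were higher in CA1 and 6 of 7 for cortical layers were higher in ACC, in tables normalised separately.

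Mitochondria make a small set of respiratory chain subunits from their own genome, on a ribosome of their own. Its RNAs are encoded in the mitochondrial genome, while all of its proteins are encoded in the nucleus, translated in the cytosol and imported. A part of these proteins descends from the bacterial ribosome and is called conserved below; the others were gained in the lineage of mitochondria and are called mitochondria-specific. Neurons depend on oxidative phosphorylation for most of their energy.

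One hour after training, no mitochondrial ribosomal protein gene passed the test in CA1. After the context alone, 0 of 75 genes were higher and 0 were lower at an adjusted p under 0.05 in the authors' deposited table, where 4.62% of all genes were higher and 3.41% lower, 8.03% in all. The test is the one behind that table, which the submitters' processing notes tie to DESeq2, and 4 of the 75 genes (5.33%) had an unadjusted p under 0.05 against 21.2% of all genes. After context plus shock, 0 genes were higher and 0 were lower, beside 3.21% and 2.84% of all genes (6.05% in all), and 3 genes (4%) had an unadjusted p under 0.05 in the authors' deposited table against 18.7% of all genes. The median log2 fold change of the 75 genes was -0.022 after context and 0.01 after shock, next to -0.0036 and -0.01 for all genes in the authors' deposited tables.

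The CA1 values with the smallest p were spread over both subunits. Mrps10, a conserved small subunit protein, stood at -0.24 (log2 fold change) after context in the authors' deposited table (implied error 0.11, adjusted p = 0.14). The implied error of a log2 fold change is the value divided by the normal score of its p. Mrps21, another conserved small subunit protein, had 0.25 after shock (implied error 0.093, adjusted p = 0.086). Mrps34, a mitochondria-specific small subunit protein, had the lowest value after shock at -0.51, with an implied error of 0.27 and an adjusted p of 0.28 in the authors' deposited table. Its base mean in CA1 was only 98.9. In the large subunit, Mrpl32 had -0.21 after context and Mrpl42 had 0.17 after shock in the authors' deposited tables (adjusted p = 0.15 and 0.16). None of these values passed the threshold.

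**Figure D1:**
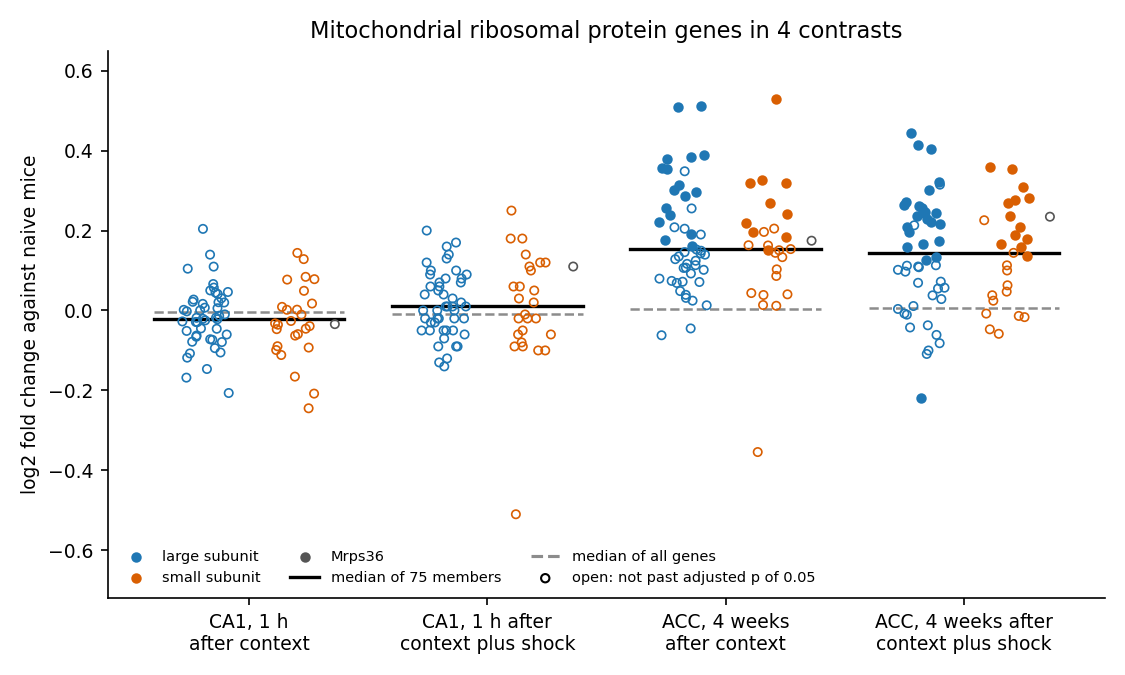
Each point is 1 of the 75 mitochondrial ribosomal protein genes, with the log2 fold change against naive mice on the y axis and the 4 contrasts on the x axis; blue is the large subunit, orange the small subunit and grey Mrps36, filled points passed an adjusted p of 0.05, black lines are the medians of the 75 genes and dashed lines those of all genes. The medians lie at -0.022 and 0.01 in CA1 and at 0.15 and 0.14 in ACC, and filled points occur in ACC, where 1 of them lies below 0.

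At 4 weeks after the context alone, part of the mitochondrial ribosomal protein genes were higher in ACC than in naive mice, and 48 of 75 did not pass the test. In the authors' deposited table, 27 of 75 genes (36%) were higher and 0 were lower at an adjusted p under 0.05, beside 9.37% of all genes called higher and 10.2% called lower (19.6% in all). The fold changes were small: the median was 0.15 on the log2 scale, next to 0.0036 over all genes, and 72 of 75 values (96%) were above 0, beside 50.8% of all genes in the authors' deposited table. Large subunit genes gave 17 of 48 higher with a median of 0.15, and small subunit genes gave 10 of 26 with a median of 0.16. In bulk tissue, a change in the number of cells of a type and a change in RNA per cell cannot be told apart.

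Of the 30 conserved large subunit genes, 13 were higher after context (median 0.16). Mrpl33 had the smallest p of the family in the authors' deposited table, where it rose by 0.51 on the log2 scale (implied error 0.069, adjusted p = 3.2e-11), or 42.4% more than in naive mice. Its values in the other contrasts were -0.06 and 0.09 in CA1 after context and after shock and 0.30 in ACC after shock, the last with an adjusted p of 1.3e-05 in the authors' deposited table. Mrpl33 was thus high in both ACC groups and near 0 in both CA1 groups.

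Mrpl13, a conserved protein of the large subunit, rose by 0.38 (implied error 0.060, adjusted p = 1.6e-08) in the authors' deposited table of ACC after context, and Mrpl20 rose by 0.35 (implied error 0.063, adjusted p = 9.9e-07). Mrpl14 rose by 0.51 with a larger implied error of 0.11 and an adjusted p of 0.00013. Its protein lies on the face that meets the small subunit and is the binding site of the assembly factor Malsu1. In the authors' deposited tables Mrpl14 had 0.20 in both CA1 contrasts (adjusted p = 0.25 and 0.33) and 0.44 in ACC after shock. Its 4 values were all above 0, and those in ACC passed the threshold.

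Among the 18 mitochondria-specific large subunit genes, 4 were higher after context (median 0.13). The smallest p belonged to Mrpl41, which rose by 0.38 in the authors' deposited table (implied error 0.066, adjusted p = 6e-07), a rise of 30.2%. Mrps18a, Mrpl46 and Mrpl49 were the other 3. Mrpl46 encodes a protein of the central protuberance, the knob of the large subunit that faces the head of the small one.

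In the small subunit, 9 of the 16 conserved genes were higher after context (median 0.19) and 1 of the 10 mitochondria-specific genes was (median 0.15). The conserved gene with the smallest p was Mrps18c, which rose by 0.53 in the authors' deposited table (implied error 0.086, adjusted p = 5.3e-08), or 44.3%, the highest value of the family in that contrast. The mitochondria-specific gene was Mrps25, which rose by 0.24 (implied error 0.055, adjusted p = 0.00025). The difference in counts between the conserved and the mitochondria-specific genes was not tested.

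At 4 weeks after context plus shock, more of these genes were higher in ACC, in a contrast where far more of all genes were called. The authors' deposited table gave 36 of 75 genes (48%) higher and 1 (1.33%) lower, beside 19.8% of all genes called higher and 21.8% called lower (41.6% in all). The median log2 fold change was 0.14, next to 0.0063 over all genes, and 61 of 75 values (81.3%) were above 0, beside 51.1% of all genes in the authors' deposited table. By group, 15 of 30 conserved large subunit genes were higher, 8 of 18 mitochondria-specific large subunit genes, 10 of 16 conserved small subunit genes and 3 of 10 mitochondria-specific small subunit genes. Their medians were 0.16, 0.087, 0.18 and 0.044.

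Mrpl28, a conserved large subunit protein, had the smallest p after shock, where the authors' deposited table gives a rise of 0.40 on the log2 scale (implied error 0.046, adjusted p = 1.2e-16), or 32.2% above naive mice. In ACC after context its value was 0.31 (adjusted p = 0.00093), and in CA1 it was 0.04 and 0.03 after context and shock in the authors' deposited tables. Mrpl4 rose by 0.41 after shock (implied error 0.062, adjusted p = 5e-10). In bacteria its counterpart reaches with a loop into the tunnel through which the new chain leaves. After context alone the authors' deposited table gives Mrpl4 0.15 (adjusted p = 0.28). Mrpl14 rose by 0.44 after shock (implied error 0.081, adjusted p = 3.5e-07).

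The small subunit genes with the smallest p after shock were Mrps25, which rose by 0.27 in the authors' deposited table (implied error 0.048, adjusted p = 1.5e-07), and Mrps11, which rose by 0.35 (implied error 0.069, adjusted p = 2.1e-06). Mrps11 descends from a bacterial protein of the platform of the small subunit. Mrpl38, a mitochondria-specific protein of the central protuberance, rose by 0.26 (implied error 0.050, adjusted p = 2.4e-06) in the authors' deposited table. After context alone Mrps11 had 0.20 and Mrpl38 had 0.11, with adjusted p of 0.063 and 0.38 there.

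One member was lower. Mrpl50, a mitochondria-specific large subunit gene, fell by 0.22 after shock in the authors' deposited table (implied error 0.054, adjusted p = 0.00029), or by 14%. Its values elsewhere were -0.08 and -0.02 in CA1 and 0.04 in ACC after context, none of which passed the threshold in the authors' deposited tables.

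**Figure D2:**
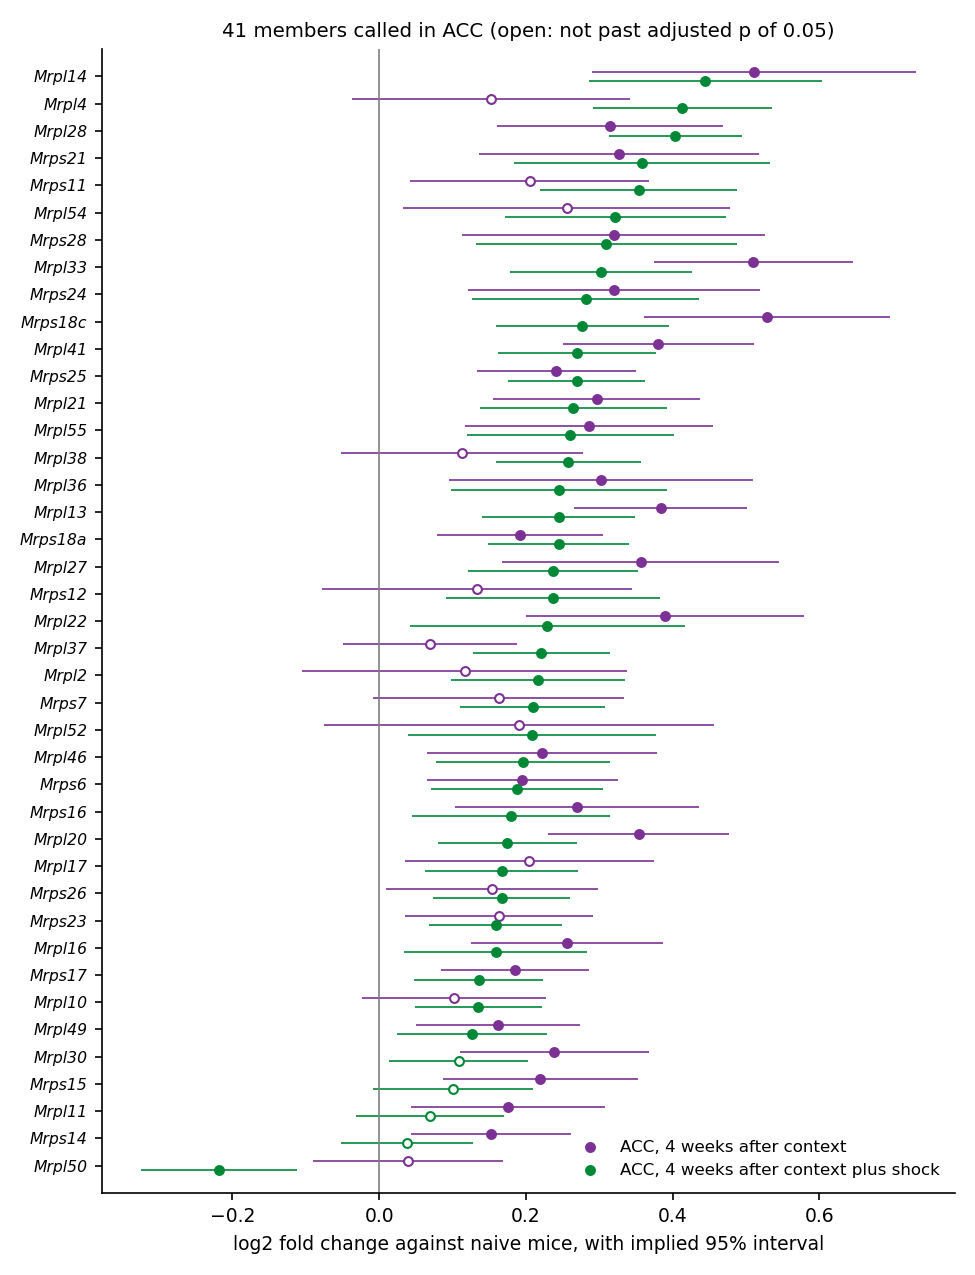
The 41 genes called in at least 1 ACC contrast are shown by their log2 fold change against naive mice on the x axis, with implied 95% intervals; purple is context and green is context plus shock, and open points did not pass an adjusted p of 0.05. Mrpl50 is the 1 gene whose shock value lies below 0, at -0.22, and Mrps18c, Mrpl14 and Mrpl33 have the highest context values, at 0.53, 0.51 and 0.51.

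Both ACC contrasts use the same naive libraries, so their values are set side by side and not counted as repeats of each other. Shock and context were compared as the difference of both log2 fold changes over the root of the summed squared implied errors, with p-values adjusted over all shared genes. In ACC, 0 of 75 genes differed between shock and context, beside 1.59% of all genes called. By the normal test on these differences 6 of the 75 had an unadjusted p under 0.05, beside 12% of all genes. The smallest p belonged to Mrpl50, with a difference of -0.26 (95% interval -0.42 to -0.09, adjusted p = 0.11). In CA1, 0 of 75 genes differed, beside 0.00665% of all genes called, and by the same test 0 had an unadjusted p under 0.05, beside 1.01% of all genes. The error of these differences is too large, because the naive libraries count in both values, so an absent call does not show that shock and context act alike.

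Under other call rules the members were read against the same background. With a log2 fold change of at least 0.25 in size required as well, 17 members were higher in ACC after context (5.04% of all genes), and 15 were higher and 0 lower after shock (9.76% and 10.6% of all genes). At an adjusted p under 0.1, 1 member, Mrps21, was higher in CA1 after shock (4.83% of all genes) and 2 were lower in ACC after shock (24.5% of all genes). All members called higher in ACC at 0.05 also passed this looser rule, and further ones joined them. Their number under it is not given here. The members nearest to the threshold show how close some calls were. In the authors' deposited table of ACC after context, Mrpl11, a protein at the base of the stalk that receives translation factors, was just inside with an adjusted p of 0.048. Mrps23 (0.060), Mrps30 (0.061) and Mrps11 (0.063) were just outside. In the authors' deposited table of ACC after shock, Mrpl22 was just inside at 0.041, with Mrpl52 at 0.039 and Mrpl49 at 0.038. Mrps18b (0.051), Mrps9 (0.054) and Mrpl30 (0.058) were just outside.

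Transcript length moved with these results. In ACC the log2 fold changes of all genes were lower for longer transcripts, with a Spearman's rho of -0.55 after context over 14056 genes and -0.51 after shock over 14149 genes, given as a description across genes that share the same libraries. The length used is that of the longest protein-coding transcript in GENCODE M21. Of the members, 46 have the same gene coordinates there as in the deposited data, so the lengths of the others may differ from those of the genes counted. Mitochondrial ribosomal protein genes are short, with a median of 1327.5 bases against 3241.5 bases for all genes in the context table. Within the family the order was the same, with rho of -0.50 after context and -0.61 after shock over 74 genes. GC content of the transcript had a rho of 0.22 and 0.62 with the members' fold changes, and of 0.20 and 0.54 over all genes.

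Split by length, the shortest 25 members, of 463 to 1068 bases, had 15 calls higher after context in the authors' deposited table (median 0.29), and 19 after shock (median 0.24). The middle 25, of 1079 to 1849 bases, had 6 and 10 higher (medians 0.14 and 0.11). Of the longest 24, of 1962 to 7300 bases, 5 were higher after context (median 0.13), and 6 were higher and 1 lower after shock (median 0.024). As deposited, the shortest members had the most calls. The shortest bin of all genes, with median lengths of 853 and 852.5 bases, itself had median log2 fold changes of 0.24 and 0.21. With the trend of the longest protein-coding transcript removed, the order turned. The shortest members then had 1 higher and 1 lower after context and 2 higher after shock. The middle ones had 1 higher after context and 1 lower after shock. The longest ones had 5 higher after context, and 8 higher and 1 lower after shock. Of all genes, 4.52% were then higher and 4.22% lower after context, and 11.2% and 11% after shock. Among the longest are Mrpl17, Mrps17, Mrps16 and Mrpl32, whose transcripts used here are longer than the genes as deposited.

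When a spline trend on length and GC over all genes was subtracted, 12 members were higher and 0 lower after context (5.56% of all genes higher and 4.31% lower), with a median of 0.073. After shock 16 were higher and 1 lower (12.5% of all genes higher and 11.9% lower), with a median of 0.069. This trend used the longest transcript of any type. With the longest protein-coding transcript, chosen after seeing the data, 7 of 74 were higher and 1 lower after context (4.52% of all genes higher and 4.22% lower). After shock 10 of 74 were higher and 2 lower (11.2% of all genes higher and 11.0% lower), so the share of members called higher was near that of all genes. The medians were then 0.042 and 0.044. What sets the trend was not tested. Several members named above lost their call under the trend of the protein-coding transcript. After context these were Mrpl41 at 0.14, Mrpl20 at 0.11 and Mrpl14 at 0.28 (adjusted p = 0.18, 0.29 and 0.11). After shock they were Mrpl4 at 0.15, Mrpl14 at 0.13, Mrps11 at 0.13 and Mrpl38 at 0.0041 (adjusted p = 0.069, 0.28, 0.17 and 0.97). Mrpl13 after context, Mrpl28 after shock and the fall of Mrpl50 stayed past the threshold, at 0.22, 0.14 and -0.16.

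Of all members with a length, Mrps18c, Mrps25 and Mrps17 were called higher in both ACC contrasts as deposited and under both trends. For Mrps17 the length used, 5061 bases, is longer than the gene as deposited, chr5:129715497-129718875, so its calls under the trends are uncertain. With the trend of the protein-coding transcript removed, Mrps25 had 0.37 after context (adjusted p = 4.4e-09) and 0.47 after shock (adjusted p = 8.6e-20), against 0.24 and 0.27 as deposited. Its longest protein-coding transcript has 6073 bases, and 69.8% of its exonic bases also belong to Nr2c2 on the opposite strand. Mrpl17, whose transcript of 7300 bases is the longest of the family, had 0.20 after context (adjusted p = 0.079) and rose by 0.17 after shock (adjusted p = 0.0058) in the authors' deposited tables. With the trend of the protein-coding transcript removed it had 0.38 and 0.43, called in both. The Mrpl17 gene as deposited, chr7:105806658-105811099, is shorter than that transcript. Its values with a trend removed therefore rest on a length that the deposited gene does not hold. Mrpl33 has no length under its identifier in GENCODE M21 and was left out of these fits.

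**Figure D3:**
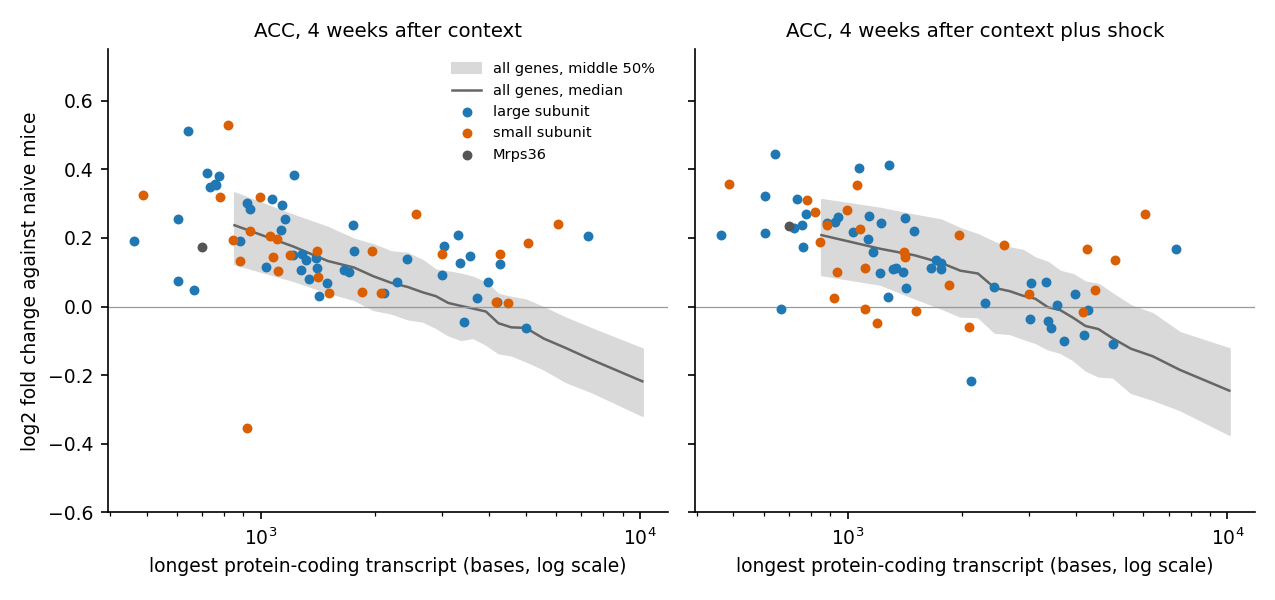
Log2 fold change against naive mice (y axis) is plotted against the length of the longest protein-coding transcript in bases (x axis, log scale) for 74 members in both ACC contrasts; the line and band are the median and middle 50% of all genes in bins of length. Members lie mostly above 0 at the short end, the band falls below 0 at the long end, and Mrps25 and Mrpl17, long by their GENCODE M21 transcripts, lie above it.

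Motifs in the start regions of the members were counted, as features that the name rule did not use. Windows from 250 bases before to 50 bases after the annotated start were available from RefSeq for GRCm38.p6 for 66 members, in 72 windows; Mrpl4, Mrpl13, Mrpl15, Mrpl19, Mrpl38, Mrpl54, Mrps28, Mrps34 and Mrps35 had none. Each motif was searched on both strands, and no match of one motif overlapped that of another in these windows. CCGGAAG, the core bound by ETS family factors such as NRF2/GABP, stood in 31.9% of member windows and 11.6% of the 21263 windows of protein-coding genes. AAGATGGC, bound by YY1, stood in 16.7% and 3.05%, and GCGCATGC, bound by NRF1, in 11.1% and 3.52%. ACTACAA, bound by Ronin, stood in 6.94% and 3.60%. TATAAA stood in 6.94% of member windows and 12.6% of all protein-coding windows, and the cAMP response element TGACGTCA in 2.78% and 2.23%. At least 1 of the first 4 motifs stood in 38 of 72 member windows (52.8%) and in 19.7% of all protein-coding windows. NRF1, NRF2/GABP and YY1 are known as regulators of nuclear genes for mitochondrial proteins. A match is a description of letters, not of binding.

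The start regions of 5 members called in ACC are shown, chosen after their values were seen. Mrpl28 was taken for the smallest p after shock, and Mrps18c and Mrps18a as paralogs that lie in different subunits. Mrpl16 was taken for its cAMP response element and TATAAA match, and Mrpl17 for its long GENCODE M21 transcript. Each is the longest stretch of the window that no annotated exon covers. Sequences are from RefSeq, GRCm38.p6, 5′ to 3′ on the gene's strand, and capitals mark the matched motif on either strand. Mrpl28 is on the plus strand at chr17:26123255-26123499, Mrps18c on the plus strand at chr5:100798599-100798626, Mrps18a on the plus strand at chr17:46110754-46110985, Mrpl16 on the plus strand at chr19:11770165-11770390 and Mrpl17 on the minus strand at chr7:105811100-105811337.
Mrpl28: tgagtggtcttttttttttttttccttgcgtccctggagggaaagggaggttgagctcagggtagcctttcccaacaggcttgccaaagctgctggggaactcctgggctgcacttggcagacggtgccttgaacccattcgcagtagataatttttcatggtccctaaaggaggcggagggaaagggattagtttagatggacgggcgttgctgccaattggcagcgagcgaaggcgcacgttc
Mrps18c: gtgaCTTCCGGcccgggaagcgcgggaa
Mrps18a: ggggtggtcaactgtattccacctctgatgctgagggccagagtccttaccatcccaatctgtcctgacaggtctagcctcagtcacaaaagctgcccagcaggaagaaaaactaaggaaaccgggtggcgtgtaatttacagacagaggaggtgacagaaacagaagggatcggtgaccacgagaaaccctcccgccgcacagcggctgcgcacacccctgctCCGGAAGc
Mrpl16: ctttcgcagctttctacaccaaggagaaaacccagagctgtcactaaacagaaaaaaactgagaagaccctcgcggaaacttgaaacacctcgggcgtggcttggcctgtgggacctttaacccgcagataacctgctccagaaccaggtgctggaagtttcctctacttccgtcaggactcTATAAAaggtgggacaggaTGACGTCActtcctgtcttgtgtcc
Mrpl17: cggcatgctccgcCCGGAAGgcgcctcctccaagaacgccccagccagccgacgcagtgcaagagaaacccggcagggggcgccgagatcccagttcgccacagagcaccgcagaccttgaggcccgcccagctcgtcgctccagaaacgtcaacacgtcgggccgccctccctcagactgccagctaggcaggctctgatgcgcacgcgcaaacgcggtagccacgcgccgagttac
The Mrpl28 stretch holds none of the 6 motifs. The ETS core lies 26 bases before the RefSeq start in Mrps18a, 156 bases before it in Mrps18c and 237 bases before it in Mrpl17, where the Mrps18c match is on the other strand. In Mrps18c that start lies inside the gene as deposited. The deposited gene begins at 100798627, directly after the printed stretch, so the match is closer to that start. In Mrpl16 the TATAAA match lies 68 bases and the cAMP response element 49 bases before the start. Not within the printed stretches, the windows also hold a Ronin match in Mrpl16, an NRF1 match in Mrpl17 and a YY1 match in Mrps18a. Beside these sequences, the authors' deposited tables give Mrpl16 a rise of 0.26 in ACC after context (adjusted p = 0.0016) and of 0.16 after shock (adjusted p = 0.033). With the trend of the protein-coding transcript removed these were 0.092 and 0.062, not called (adjusted p = 0.48 and 0.54). In CA1 at 1 h Mrpl16 had -0.11 and -0.07 in the authors' deposited tables (adjusted p = 0.45 and 0.72).

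The 3 Mrps18 paralogs descend from 1 bacterial small subunit protein and sit in different places. Mrps18c takes the bacterial position in the small subunit, Mrps18b lies elsewhere in that subunit, and Mrps18a is part of the large subunit, where it is counted above as mitochondria-specific. In the authors' deposited tables Mrps18a had 0.02 and 0.07 in CA1, and rose in ACC by 0.19 after context (adjusted p = 0.0083) and by 0.24 after shock (adjusted p = 5e-06). Mrps18a was not called, and its ACC values turned to -0.025 and -0.0079, when the trend of the protein-coding transcript was removed. Mrps18b had 0.14 and 0.23 in ACC (adjusted p = 0.36 and 0.051). Mrps18c had -0.17 and -0.02 in CA1, and rose by 0.53 and 0.28 in ACC in the authors' deposited tables. Mrps18b had a base mean of 157 in ACC against 825 for Mrps18a and 455 for Mrps18c in the context table. In Mrps18b 30.5% of the exonic bases, and in Mrps18c 23.2%, also belong to another annotated gene.

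Mrps36 did not pass the threshold in any contrast, with -0.03 and 0.11 in CA1 and 0.17 and 0.23 in ACC in the authors' deposited tables (adjusted p = 0.48 and 0.19 in ACC). Its base mean was 68.1 in CA1 and 66.7 in ACC, where the median base mean over members was 547 and 536. A further 33 members passed in no contrast, and those whose ACC values were both below 0 were Mrpl19 at -0.06 and -0.11 and Mrpl51 at -0.04 and -0.06 in the authors' deposited tables. Mrps34 had -0.35 and 0.02 in ACC (adjusted p = 0.14 and 0.92), with 77.8% of its exonic bases shared with Mapk8ip3 or Nme3. The kit used does not mark strand and the strand setting of the counting is not given in the sources used here, so reads of overlapping genes cannot be told apart. In all, 30 members overlap exons of another gene, 17 of them with more than 10% of their exonic bases, and their values are uncertain to that extent. Mrpl33, which has no entry under its identifier in GENCODE M21, was not checked for overlaps.

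Differences between the regions were tested in the same way as those between shock and context. After context, 8 of 75 genes had a higher fold change in ACC at 4 weeks than in CA1 at 1 h, and 0 had a lower one, beside 5.52% and 8.89% of all genes. The largest was Mrps18c with a difference of 0.69 on the log2 scale (95% interval 0.44 to 0.95), followed by Mrpl33 with 0.57 (0.36 to 0.78) and Mrpl41 with 0.43 (0.23 to 0.63). After shock, 8 of 75 were higher in ACC and 0 lower, beside 10.8% and 14.2% of all genes. Mrpl4 led with 0.46 (0.27 to 0.66), Mrpl28 had 0.37 (0.19 to 0.55) and Mrpl38 had 0.35 (0.18 to 0.52). After shock the share of members called higher was close to that of all genes. With the length and GC trend removed, 5 members were higher in ACC after context (2.71% of all genes) and 5 after shock (6.75% of all genes), but most were other genes. Of the 8 calls after context, Mrps18c and Mrpl13 stayed, 5 were lost and Mrpl33 has no length, while Mrpl17, Mrps17 and Mrps25 were gained. Mrpl41 then had 0.26 (adjusted p = 0.12). Of the 8 calls after shock, Mrps26 stayed and 7 were lost, among them Mrpl4 at 0.26, Mrpl28 at 0.10 and Mrpl38 at 0.062 (adjusted p = 0.052, 0.52 and 0.72). At an adjusted p under 0.1, 16 were higher after context (8.17% of all genes) and 2 were lower after shock (17.1% of all genes). The 8 called higher after shock also passed this looser rule, and the number higher after shock under it is not given here.

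Levels were read as base mean per kb of the longest protein-coding transcript, in the authors' deposited tables of the context contrasts. In CA1 the highest levels per kb were those of Mrpl20 (1209), Mrpl41 (1007) and Mrps21 (939), and the lowest those of Mrpl23 (32.1), Mrps35 (71.4) and Mrpl17 (81.0). That of Mrpl17 rests on a GENCODE M21 transcript longer than the gene as deposited. In ACC the highest were Mrpl20 (1440), Mrpl41 (1055) and Mrps18a (933), and the lowest Mrpl23 (26.2), Mrps34 (75.1) and Mrps35 (77.3). The median level per kb was 363 in CA1 and 355 in ACC. The top pair was the same in both regions. Only 1 value per table is given, so no spread of a level and no test of neighbours in this order can be had. Mrpl23 had a base mean of 23.6 in CA1, and a processed copy of it, Mrpl23-ps1, is annotated, so its reads may be split.

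Levels in CA1 and ACC were also set side by side as ratios. The log2 ratio of base means, ACC over CA1, less the median of all genes, had a median of -0.043 over the 75 genes and ran from -0.61 for Mrps34 to 0.27 for Mrpl48. Of all genes, the middle 50% ran from -0.16 to 0.17. The tables of the regions were normalised separately, so these ratios are a description.

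**Figure D4:**
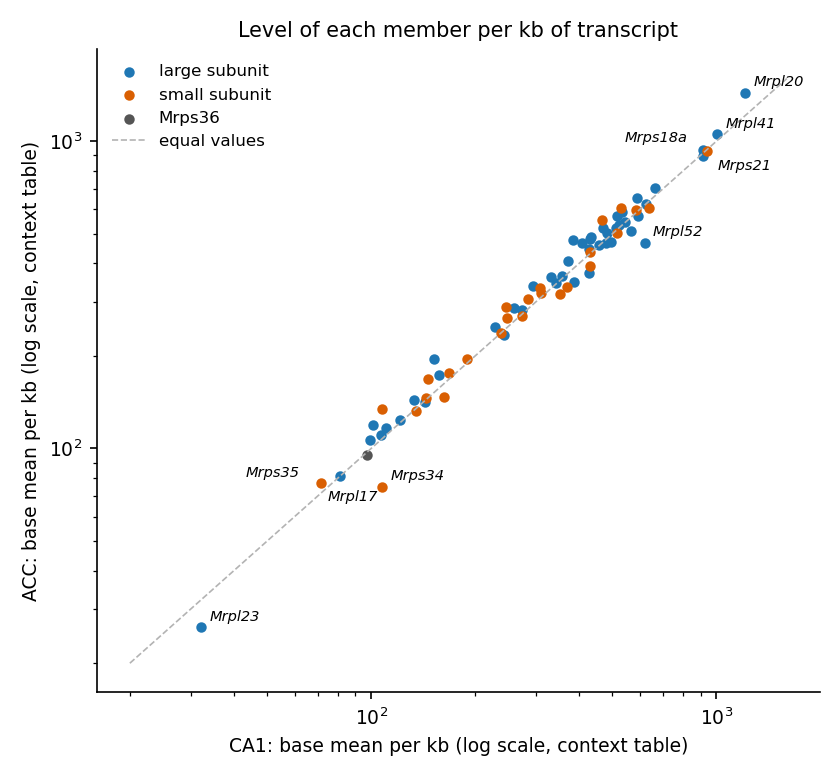
Each point is 1 of 74 members, with its base mean per kb of transcript in CA1 on the x axis and in ACC on the y axis, both on log scales and from the context tables; the dashed line marks equal values. Points follow the line from Mrpl23, at 32.1 and 26.2, to Mrpl20, at 1209 and 1440, with Mrps34 and Mrpl52 below it.

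Few exonic bins of these genes were listed as changed. Whether the test of a bin is relative to its whole gene is not given in the sources used here. The authors' deposited bin tables list bins with an adjusted p under 0.1, and they held 0 bins of the 75 genes in CA1, out of 194 and 189 bins listed after context and after shock. Those bins came from 160 and 165 genes, beside 15123 and 15115 genes in the gene tables of these contrasts. With so few genes listed, 0 bins says little about the members. In ACC after context the bin table held 3 of 4647, in 2 of the 75 genes. Its bins came from 2685 genes, beside 15270 genes in the gene table of that contrast. Bin 3 of Mrpl12 in the authors' deposited table stood at -0.24 on the log2 scale (adjusted p = 0.0057), while the gene as a whole had 0.14. Bin 1 of Mrpl12 had -0.59 (adjusted p = 0.067), on a mean of only 19.9. Mrpl12 encodes the stalk protein that recruits translation factors. Bin 1 of Mrpl43 had 0.083 (adjusted p = 0.0075). In ACC after shock the authors' deposited table lists 2699 bins from 1703 genes, beside 15455 genes in the gene table. Of these bins, 1 came from a member: bin 1 of Mrps25, with -0.050 (adjusted p = 0.0039). Mrpl43 shares 33.4% of its exonic bases with Twnk, and Mrpl12 shares 13.1% with Gm16755 on the opposite strand, so all 4 listed bins lie in genes with overlaps. Among all members, 30 have such overlaps, and the bins were not placed against the shared stretches.

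The other genes of mitochondrial translation were described by lists, to be read against the 9.37% of all genes higher and 10.2% lower in ACC after context and the 19.8% and 21.8% after shock. Of 6 ribosomal proteins with other names, 3 were higher after context and 4 higher and 1 lower after shock in the authors' deposited ACC tables. Chchd1, a small subunit protein, had 0.37 and 0.29 (adjusted p = 0.00037 and 0.00010), and Dap3, a GTP-binding protein of the small subunit, had 0.17 in both (adjusted p = 0.0074 and 0.00018). Ptcd3, a small subunit protein of the pentatricopeptide family, fell by 0.15 after shock (adjusted p = 0.0018). No gene of this list was called in CA1, 0 of 6 in each table. Mrp63, the older name of Mrpl57, was not on this list of 6. It had 0.016 and 0.10 in ACC and was not called in the authors' deposited tables.

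Of 25 assembly factors, 3 were higher and 0 lower in ACC after context, and 7 higher and 0 lower after shock, with medians of 0.10 and 0.095. The shares called higher, 12% and 28%, compare with 9.37% and 19.8% of all genes. Malsu1, which binds the Mrpl14 protein, rose by 0.47 after context (adjusted p = 0.00017) and by 0.38 after shock (adjusted p = 0.00070) in the authors' deposited tables. Mtg1, a GTPase of large subunit assembly, rose by 0.26 and 0.25 (adjusted p = 0.016 and 0.00010). Mettl17, which acts in small subunit assembly, rose by 0.66 in ACC after shock in the authors' deposited table (adjusted p = 4.8e-19), and fell by 0.38 in CA1 after shock (adjusted p = 0.048).

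Of 17 factors of mitochondrial translation, 1 was higher in ACC after context, and 2 higher and 1 lower after shock (medians 0.016 and 0.0040). Slirp, which stabilises mitochondrial messenger RNAs together with Lrpprc, rose by 0.41 and 0.28 in the authors' deposited ACC tables (adjusted p = 3.5e-05 and 0.00038), while Lrpprc fell by 0.090 after shock (adjusted p = 0.045). Oxa1l, which inserts new chains into the inner membrane, rose by 0.14 after shock (adjusted p = 0.0036). Guf1, a GTPase of mitochondrial translation, was the 1 factor called in CA1: it fell by 0.44 after context and by 0.52 after shock (adjusted p = 5.9e-05 and 6.2e-05) in the authors' deposited tables.

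Of 22 tRNA synthetases that serve mitochondria, 2 were higher and 3 lower in ACC after context, and 6 higher and 4 lower after shock. These are 9.09% and 13.6% after context and 27.3% and 18.2% after shock, near the shares of all genes. Iars2 fell by 0.26 in both (adjusted p = 3.6e-06 and 1.2e-10) and Mars2 by 0.53 and 0.44 in the authors' deposited ACC tables (adjusted p = 6.7e-06 and 1.7e-05), while Tars2 rose by 0.32 after shock (adjusted p = 3.2e-08). In CA1 after context 2 were lower, Hars2 and Lars2. Gars and Kars, both on the list, encode cytosolic enzymes as well. Of 16 genes of mitochondrial DNA expression, 1 was higher after context and 5 higher after shock, with none lower. Hsd17b10, a subunit of mitochondrial RNase P, rose by 0.41 and 0.28 (adjusted p = 2.2e-06 and 2.7e-06) and Fastk, a protein of the FAST kinase family, by 0.24 after shock (adjusted p = 3.4e-06) in the authors' deposited ACC tables. Pnpt1, the mitochondrial polynucleotide phosphorylase, fell by 0.22 in CA1 after context (adjusted p = 0.014).

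Lists outside mitochondrial translation also held higher calls in ACC as deposited. Of the cytosolic ribosomal protein genes, 37 of 75 were higher and 1 lower after context and 39 of 77 higher and 2 lower after shock in the authors' deposited ACC tables, with medians of 0.25 and 0.21. Of 88 nuclear genes for respiratory chain subunits, 53 were higher and 0 lower after context and 54 higher and 3 lower after shock, with medians of 0.25 and 0.17. With the trend of the protein-coding transcript removed, the cytosolic list had 8 higher and 1 lower after context and 9 higher and 0 lower after shock. The respiratory chain list then had 5 higher and 1 lower after context, and 13 higher and 3 lower after shock. The shares of all genes under that trend are those given above, 4.52% and 11.2% higher. These genes are short too, with median lengths of 937 and 944.5 bases. Differences between the lists were not tested.

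**Figure D5:**
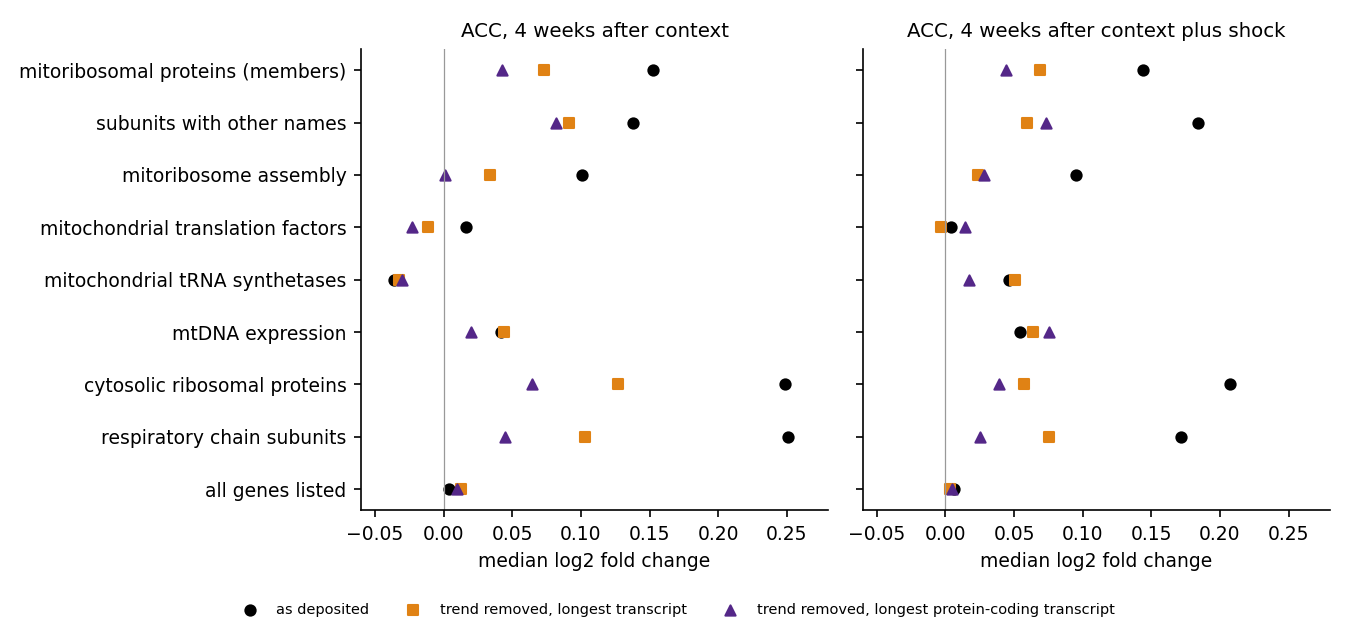
Median log2 fold change against naive mice (x axis) of each gene list (y axis) in both ACC contrasts, as deposited (circles) and with the length and GC trend of the longest transcript (squares) or of the longest protein-coding transcript (triangles) removed. Deposited medians are 0.15 and 0.14 for the mitochondrial ribosomal proteins and 0.25 for the cytosolic ones after context, and each of these 3 moves towards 0 when a trend is removed.

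Markers of cell types were read beside the ACC results. Of 7 microglial markers, 4 were higher and 0 lower in each ACC contrast, with medians of 0.23 and 0.22 in the authors' deposited tables. These markers are short too, with a median length of 1203 bases. With the trend of the protein-coding transcript removed, 2 were higher after context and 1 after shock, with 0 lower and medians of 0.19 and 0.037. Of 6 neuronal markers, 0 were higher and 1 lower after context, and 1 higher and 3 lower after shock. Astrocyte markers gave 2 higher and 0 lower of 6 after context, and 1 higher and 2 lower after shock, and oligodendrocyte markers gave 0 of 6 and then 1 higher and 1 lower. Endothelial markers gave 1 higher and 0 lower of 6 in ACC after context, and 1 higher and 3 lower after shock. In CA1, 5 of the 6 were higher in both contrasts, where no mitochondrial ribosomal protein gene was called. Their part in the members' values was not tested.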

How the data were processed

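RNA was sequenced from 29 libraries in 6 groups. Per the submitters' processing notes, CASAVA 1.8.2, STAR 2.3.0e, SAMtools and DESeq2 were used with the mouse build mm10; the counting step is not given in the sources used here. The authors deposited 4 gene tables and 4 tables of exonic bins, each with a mean normalised signal, a log2 fold change against naive mice, and p-values before and after adjustment. The authors' bin tables list bins with an adjusted p under 0.1 only. Values per library were not analysed here, so no model was refitted, and depth is unknown.

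The deposited adjusted p (threshold 0.05) was used as the main call. An error was computed from each log2 fold change and its p, assuming a Wald test. The table of CA1 after shock is rounded to 2 decimals, so 24 members with a log2 fold change under 0.05 in size took the error of the context table times 1.08. Differences between contrasts were tested with a two-sided normal test and Benjamini-Hochberg adjustment over all shared genes. Length and GC came from GENCODE M21, and trends were fitted by splines with 5 knots. The fits were tested on simulated data. Python 3.11.15, numpy 2.4.6, scipy 1.17.1, pandas 2.3.3 and scikit-learn 1.9.0 were used. The members, the gene lists and the tests were chosen with earlier results of these data known. Given with full values were the called members with the 6 smallest p per contrast and direction, those of the difference tests, the 3 highest and lowest levels per kb, the Mrps18 paralogs, members with a listed bin, Mrps36 and the members next to the threshold; of the other lists, the 2 called genes with the smallest p. Mrps10, Mrps21, Mrps34, Mrpl32, Mrpl42, Mrpl17, Mrps17, Mrpl19, Mrpl51, Ptcd3 and Lrpprc were added where they are described, after their values were seen.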

Additional observations from a re-analysis of the deposited data

Results flagged for a closer look

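For 16 values, 8 of 75 members after context and 8 of 75 after shock, the change against naive mice differed between ACC at 4 weeks and CA1 at 1 h, by the normal test of the difference with adjustment over all shared genes. Of all genes, 5.52% were called higher after context and 10.8% after shock, so the count after shock is near that of all genes. Region and time differ together in these values, and age at death may differ with them, so they cannot be told apart.

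After context, the difference of the log2 fold changes, ACC minus CA1, was 0.69 for Mrps18c, 0.57 for Mrpl33 and 0.43 for Mrpl41. It was 0.39 for Mrpl13, 0.37 for Mrpl20 and 0.36 for Mrpl16. It was 0.31 for Mrpl1, a protein of the stalk on the side of the tRNA exit, and 0.28 for Mrpl11, with adjusted p of 0.047 and 0.045. In Mrpl1 the CA1 value itself was -0.17 and not called. With the length and GC trend removed, Mrps18c (0.47) and Mrpl13 (0.48) stayed past the threshold. Mrpl41 (0.26), Mrpl20 (0.18), Mrpl16 (0.27), Mrpl1 (0.24) and Mrpl11 (0.22) did not, with adjusted p from 0.093 to 0.40, and Mrpl33 has no length.

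After shock, the same difference was 0.46 for Mrpl4, 0.37 for Mrpl28 and 0.35 for Mrpl38. It was 0.30 for Mrpl36, 0.27 for Mrpl37 and 0.26 for Mrps26. It was 0.25 for Mrpl2 and 0.23 for Mrpl43, with adjusted p of 0.046 and 0.033. With the trend removed, Mrps26 stayed past the threshold at 0.29. The other 7 did not, and Mrpl2 turned to -0.0056.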

How the results depend on the processing

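Values per library were not analysed here, so no replicate could be left out. No paired analysis was possible because the tables hold 1 value per gene and contrast and no values per library. With the length and GC trend removed, 12 members were higher in ACC after context (median 0.073) and 16 after shock (median 0.069), and 5 members were higher in each of the context and shock differences between regions, of which 2 and 1 were among the 8 called before. With the trend of the longest protein-coding transcript removed, an alternative chosen after seeing the data, 7 were higher and 1 lower after context (median 0.042). After shock 10 were higher and 2 lower (median 0.044), a share higher near the 11.2% of all genes. Requiring an absolute log2 fold change of at least 0.25 left 17 higher after context, and 15 higher and 0 lower after shock. An adjusted p under 0.1 gave 1 higher in CA1 after shock, 2 lower in ACC after shock, 16 higher in the context difference between regions and 2 lower in the shock difference.

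Removing the first trend turned the sign after shock of Mrpl10 to -0.0011, Mrpl2 to -0.025 and Mrps12 to -0.0012. Removing the second turned Mrps18a to -0.025 and Mrps6 to -0.032 after context. After shock it turned Mrpl2 to -0.044, Mrpl20 to -0.027, Mrpl52 to -0.13, Mrpl54 to -0.0090, Mrps12 to -0.023, Mrps18a to -0.0079 and Mrps6 to -0.032. The cause was not tested. Centring on the median of all genes kept 26 of 27 calls after context and 37 of 37 after shock.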

Other observations

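Lars2, the mitochondrial leucyl-tRNA synthetase, had the widest range of values among the synthetases named here. In the authors' deposited tables its log2 fold change was -1.19 in CA1 after context (adjusted p = 0.035) and -1.06 after shock (adjusted p = 0.11). In ACC it was -0.44 after context (adjusted p = 0.38) and 0.71 after shock (adjusted p = 0.22).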
